A study of Mus musculus with 8 samples.

Results

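The genes described here are 10 that build, load and switch on MHC class II molecules, namely H2-Aa, H2-Ab1, H2-Eb1, H2-DMa, H2-DMb1, H2-DMb2, H2-Oa, H2-Ob, Cd74 and Ciita. The rule picks them by name out of 41186 gene names in the table. Each gene was read from the table row that carries its name, and where several rows carried it, from the row with the largest count. The 10 genes fell into 9 of the 48607 rows, because H2-DMb1 and H2-DMb2 share a row.

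Class II molecules carry peptides from engulfed material to the surface of macrophages, dendritic cells and B cells, where CD4+ T cells read them. Such cells gather in atherosclerotic lesions of the aorta. The α and β chains of a class II molecule assemble around the invariant chain, encoded by Cd74, which blocks the peptide groove until proteases such as cathepsin S, encoded by Ctss, cut it down in endosomes. H2-DM, a dimer of the H2-DMa and H2-DMb products, then exchanges the last piece of the invariant chain for peptide, and H2-O, a dimer of the H2-Oa and H2-Ob products, restrains H2-DM. Ciita encodes the coactivator that switches these genes on. It does not bind DNA itself but sits on a complex of RFX, CREB and NF-Y factors at a conserved pair of motifs, the X box and the Y box, in front of each gene.

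The mice received Western diet over 12 weeks, and RNA of the whole aorta was sequenced after poly(A) selection. By title, 5 libraries came from ApoE-/- mice (numbered 1 to 5) and 3 from NPRC-/-ApoE-/- mice (numbered 1 to 3). Loss of Apoe, the lipoprotein ligand whose absence makes mice prone to atherosclerosis, is shared by both groups, so there was no healthy control. NPRC, the clearance receptor for natriuretic peptides, is encoded by Npr3 and was disrupted in every cell by a frameshift in the first coding exon. ApoE-/- mice were purchased as males, and the knockout was then bred in, but the age and sex of the littermates that were sequenced are not given in the sources used here. The genotype entered with each library conflicted with the title for 4 of the 8 libraries. Those titled ApoE-/- 4 and 5 were entered as NPRC-/-ApoE-/-, and those titled NPRC-/-ApoE-/- 1 and 2 were entered as ApoE-/-. Each comparison of the members is therefore given under both labels. Npr3 itself did not separate the titled groups. It had 0.62 to 1.69 FPKM (fragments scaled by the length of the transcript and the depth of the library) in the titled ApoE-/- libraries. In the other 3 it had 1.13 to 1.39 FPKM. A frameshift need not lower a transcript, and Npr3 was not compared by genotype entry. Total counts were 62969165 to 86693276 per library, and no pair of libraries agreed within sampling noise. The study's methods count 5 mice in each group, whereas only 3 libraries here are titled NPRC-/-ApoE-/-. They do not tie a library to a mouse, so p-values are read here as measuring the spread between these libraries.

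All members but Ciita and Cd74 lie within the class II region of chromosome 17, with coordinates from GENCODE M21 on GRCm38. H2-Oa is at chr17:34092340-34095234 on the plus strand, H2-DMa at chr17:34119541-34139101 (plus), H2-DMb2 at chr17:34143307-34151555 (plus), H2-DMb1 at chr17:34153072-34160230 (plus) and H2-Ob at chr17:34238903-34254414 (plus). H2-Ab1 is at chr17:34257689-34269419 (plus), H2-Aa at chr17:34282744-34287823 (minus) and H2-Eb1 at chr17:34305867-34316674 (plus). Ciita is at chr16:10480059-10528418 (plus), and Cd74 is on yet another chromosome. RefSeq promoter sequences (GRCm38.p6) were at hand for 7 members. The 250 bases before the RefSeq start of 6 of them hold the letters AAC, then 23 to 26 other bases, then TGATTGG, on either strand. AAC stands in the X box, and TGATTGG is the Y box, the CCAAT element that NF-Y binds, read in the other direction. The pair was present in 130 of 32851 RefSeq promoters (0.396%) and TGATTGG alone in 2375 (7.23%), and the pattern was chosen after the members' sequences were seen. The sequences below show how the letters between AAC and TGATTGG differ. The spacing was limited to 23 to 26 bases by the search itself. AAC and TGATTGG are in capitals, and each sequence is read 5′ to 3′ along its gene.
H2-Aa (chr17:34287852-34287917, minus strand): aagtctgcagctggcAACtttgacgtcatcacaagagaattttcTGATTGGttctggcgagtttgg
H2-Eb1 (chr17:34305763-34305827, plus strand): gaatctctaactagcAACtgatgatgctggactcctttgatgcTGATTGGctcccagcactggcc
H2-DMb2 (chr17:34145113-34145178, plus strand): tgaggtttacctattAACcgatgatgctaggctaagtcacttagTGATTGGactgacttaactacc
H2-Oa (chr17:34092290-34092355, plus strand): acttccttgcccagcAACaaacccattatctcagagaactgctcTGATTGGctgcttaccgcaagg
H2-Ob (chr17:34238805-34238867, plus strand): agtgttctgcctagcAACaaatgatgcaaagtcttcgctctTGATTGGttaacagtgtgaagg
The spacing was 26 bases in H2-Aa, H2-DMb1, H2-DMb2 and H2-Oa, 25 in H2-Eb1 and 23 in H2-Ob. TGATTGG ended 39 to 86 bases before the RefSeq start, which is not always the GENCODE start of the gene. By the GENCODE coordinates above, the H2-DMb2 stretch lies within its gene, outside exons. All 66 bases of the H2-DMb1 stretch lie in an exon, as do 16 bases of the H2-Oa stretch. In H2-DMa, neither of its entries holds these letters. A match is a description of the letters, not a binding site.

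Levels differed widely between the members. Cd74 had the highest mean over the 8 libraries, 133 FPKM, which ranked 75 among 20506 tested loci (1 FPKM or more in 3 or more libraries). The surface chains followed, with a mean of 40.0 FPKM for H2-Aa, 39.8 for H2-Eb1 and 31.2 for H2-Ab1, each above at least 97.8% of tested loci. The loading factors were lower, with a mean of 4.11 FPKM for H2-DMa and 2.30 for the shared H2-DMb row, and the coactivator Ciita had 2.06 FPKM. H2-Oa and H2-Ob were lowest, with means of 0.521 and 0.542 FPKM, and reached 1 FPKM in 1 library each. These 2 rows were therefore outside the tested loci, so 7 rows (8 genes) were tested.

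**Figure D1:**
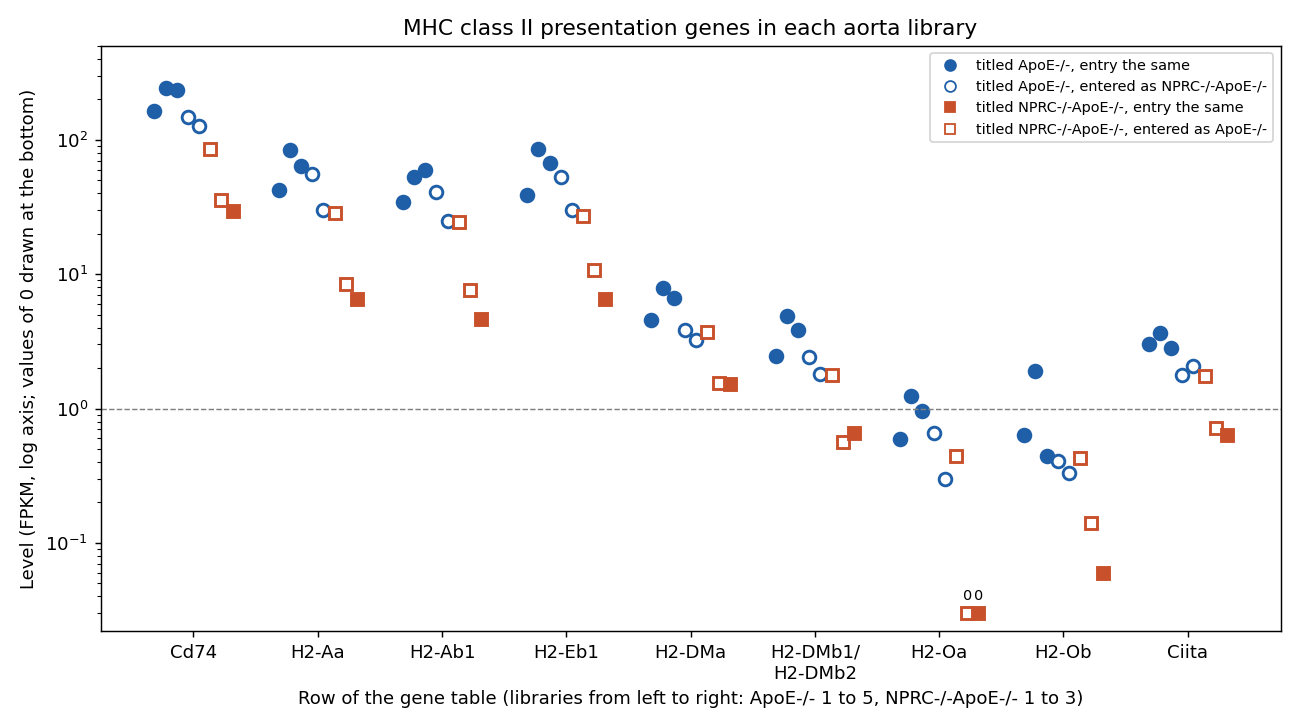
FPKM of each class II row on a log axis, with the 8 libraries from left to right in each column, circles for the titled ApoE-/- libraries and squares for those titled NPRC-/-ApoE-/-. Filled symbols have the same genotype entry as title, and open symbols have the other genotype entered. The 2 values of 0 (H2-Oa) are drawn at the bottom, the dashed line is 1 FPKM, and NPRC-/-ApoE-/- 2 and 3 lie at the foot of each column.

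The chains that reach the cell surface had lower values in the libraries titled NPRC-/-ApoE-/-. H2-Aa, the α chain of the class II molecule H2-A, had 42.49, 84.59, 63.63, 56.02 and 30.01 FPKM in ApoE-/- 1 to 5 and 28.57, 8.44 and 6.54 FPKM in NPRC-/-ApoE-/- 1 to 3. Libraries NPRC-/-ApoE-/- 2 and 3 were far below the rest, whereas NPRC-/-ApoE-/- 1 was just under ApoE-/- 5, so the titled groups did not overlap. The means were 55.3 ± 20.8 FPKM (SD, n = 5) and 14.5 ± 12.2 FPKM (SD, n = 3). The fitted log2 fold change of H2-Aa, always given as NPRC-/-ApoE-/- minus ApoE-/-, was −1.94 by title (SE 0.54, 3.84-fold lower, unadjusted p = 0.0058 and adjusted p = 0.255 in edgeR).

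H2-Ab1, the β chain that pairs with H2-Aa, had 34.36, 52.97, 60.08, 41.15 and 24.75 FPKM in ApoE-/- 1 to 5 and 24.28, 7.6 and 4.63 FPKM in NPRC-/-ApoE-/- 1 to 3. Here the highest library was ApoE-/- 3, and the gap between ApoE-/- 5 and NPRC-/-ApoE-/- 1 was small. On CPM, counts scaled by library depth after TMM normalization, these libraries changed places, at 112 and 115 CPM, so the groups overlapped on that scale. The log2 fold change of H2-Ab1 was −1.83 by title (SE 0.55, edgeR unadjusted p = 0.0086 and adjusted p = 0.277).

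H2-Eb1 encodes the β chain of H2-E. C57BL/6 mice, the strain of the knockout, make no H2-E α chain, and the remnant of that gene, H2-Ea-ps, had 5 counts in ApoE-/- 2 and 0 in each of the other libraries. H2-Eb1 itself was as abundant as H2-Aa, with 38.93, 85.53, 66.73, 52.54 and 30.19 FPKM in ApoE-/- 1 to 5 and 27.1, 10.68 and 6.49 FPKM in NPRC-/-ApoE-/- 1 to 3. Its libraries stood in the same order as those of H2-Aa, without overlap between the titled groups. The log2 fold change of H2-Eb1 was −1.90 (SE 0.51, edgeR unadjusted p = 0.0049 and adjusted p = 0.255).

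Cd74, the invariant chain, had 164.71, 241.12, 235.48, 146.66 and 126.67 FPKM in ApoE-/- 1 to 5 and 85.08, 35.71 and 29.56 FPKM in NPRC-/-ApoE-/- 1 to 3. This was the widest margin between the titled groups among the abundant members, as the highest NPRC-/-ApoE-/- library stood well under the lowest ApoE-/- one. The means were 183 ± 52.3 FPKM (SD, n = 5) and 50.1 ± 30.4 FPKM (SD, n = 3). The log2 fold change of Cd74 was −1.87 (SE 0.40, 3.65-fold lower, edgeR unadjusted p = 0.0011 and adjusted p = 0.222). The row of Cd74 also names the microRNA gene Mir5107, whose reads cannot be separated from it.

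Of the peptide-loading factors, H2-DMa had the smallest log2 fold change of the tested rows. Its values were 4.53, 7.83, 6.65, 3.81 and 3.22 FPKM in ApoE-/- 1 to 5 and 3.72, 1.56 and 1.53 FPKM in NPRC-/-ApoE-/- 1 to 3. The titled groups overlapped, with NPRC-/-ApoE-/- 1 above ApoE-/- 5. The log2 fold change was −1.19 (SE 0.40, 2.28-fold lower, edgeR unadjusted p = 0.016 and adjusted p = 0.304). H2-DMa overlaps Brd2, a broadly expressed gene on the other strand at 9.32 to 14.78 FPKM, and whether counting used the strand is not stated, so reads of the pair may not have been told apart.

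The H2-DMb row joins H2-DMb1 and H2-DMb2, neighbours that both encode β chains of H2-DM. Their longest protein-coding transcripts were identical at 1010 of 1058 aligned bases (95.5%), and their counts could not be separated here. The row had 2.48, 4.9, 3.84, 2.41 and 1.8 FPKM in ApoE-/- 1 to 5 and 1.77, 0.56 and 0.66 FPKM in NPRC-/-ApoE-/- 1 to 3. NPRC-/-ApoE-/- 1 was level with ApoE-/- 5, just below it in FPKM and just above it in CPM (17.9 against 17.5). The log2 fold change of H2-DMb1/H2-DMb2 was −1.63 (SE 0.47, edgeR unadjusted p = 0.0069 and adjusted p = 0.267).

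The H2-O chains, which B cells and some dendritic cells make, had the lowest values of the members. H2-Oa had 84, 140, 134, 93 and 40 counts in ApoE-/- 1 to 5 and 65, 0 and 0 counts in NPRC-/-ApoE-/- 1 to 3, or 0.59, 1.23, 0.95, 0.66 and 0.3 FPKM against 0.44, 0 and 0 FPKM. A count of 0 in a table built from assembled transcripts can be a low level or a transcript that was not assembled, and these cannot be told apart here. H2-Ob had 0.64, 1.89, 0.44, 0.41 and 0.33 FPKM in ApoE-/- 1 to 5 and 0.43, 0.14 and 0.06 FPKM in NPRC-/-ApoE-/- 1 to 3, from 43 to 938 counts. For both, NPRC-/-ApoE-/- 1 lay among the titled ApoE-/- libraries and NPRC-/-ApoE-/- 2 and 3 were lowest. Without the filter on low values, the log2 fold change was −2.34 for H2-Oa (SE 1.23, edgeR unadjusted p = 0.086 and adjusted p = 0.526) and −1.77 for H2-Ob (SE 0.72, edgeR unadjusted p = 0.033 and adjusted p = 0.442). By genotype entry they were −0.97 (unadjusted p = 0.48) and −1.35 (unadjusted p = 0.12).

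Ciita, the coactivator, had 3.04, 3.63, 2.83, 1.78 and 2.06 FPKM in ApoE-/- 1 to 5 and 1.76, 0.72 and 0.63 FPKM in NPRC-/-ApoE-/- 1 to 3. The groups did not overlap, but NPRC-/-ApoE-/- 1 was level with ApoE-/- 4. The log2 fold change of Ciita was −1.35 (SE 0.37, 2.54-fold lower, edgeR unadjusted p = 0.0053 and adjusted p = 0.255). The row also overlaps Dexi, on the other strand, which had 1.46 to 2.82 FPKM in the titled ApoE-/- libraries and 1.86 to 2.40 FPKM in the others.

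By title, 7 of the 7 tested rows were lower with an unadjusted p under 0.05, against 7.13% of all tested loci. All 7 also met the criterion of the study, a fold change below 0.5 with that p, against 2.39% of tested loci, and 6 of 7 (not H2-DMa) had no overlap between the titled groups in FPKM, against 4.37%. On TMM-scaled CPM 4 of the 7 had none, against 3.69% of tested loci. After correction over all loci, 0 of 7 rows had an adjusted p under 0.05 in edgeR, as did 0% of tested loci. DESeq2 gave an adjusted p under 0.05 for 6 of 7 (H2-DMa had 0.0615), where 1.81% of tested loci were lower with such a p. Limma with array quality weights did so for 5 of 7 (H2-DMa had 0.0579 and H2-DMb1/H2-DMb2 0.0535), where 0.39% of tested loci were. Its weights were lowest for NPRC-/-ApoE-/- 1 (0.51) and highest for NPRC-/-ApoE-/- 2 (2.03). That fit thus played down the titled NPRC-/-ApoE-/- library whose class II values were nearest to the titled ApoE-/- ones. Whether these rows pass the correction depended on the test. The adjusted p over all alternatives by title was between 0.000214 (Cd74, DESeq2) and 0.759 (H2-DMa). The median log2 fold change of the 7 rows was −1.83, against −0.0062 over all tested loci.

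By genotype entry, all 7 log2 fold changes were still negative but smaller, from −0.53 (H2-Aa, SE 0.78) to −0.75 (H2-DMa, SE 0.50), with a median of −0.60. Unadjusted p-values were 0.17 to 0.51, so 0 of 7 rows had one under 0.05, where 0.697% of tested loci did in the lower direction, and 0% of tested loci had an adjusted p under 0.05 in edgeR. With DESeq2 and with array quality weights, 0 of 7 had an unadjusted p under 0.05 as well, against 0.946% and 1.19% of tested loci in the lower direction. The groups overlapped for each row, since each genotype entry group then held 1 of NPRC-/-ApoE-/- 2 and 3, the lowest libraries. In the 4 libraries whose labels agree, NPRC-/-ApoE-/- 3 against ApoE-/- 1, 2 and 3, the log2 fold changes were −1.92 (H2-DMa) to −3.28 (H2-Ab1), with 1 library in a group and so no test.

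**Figure D2:**
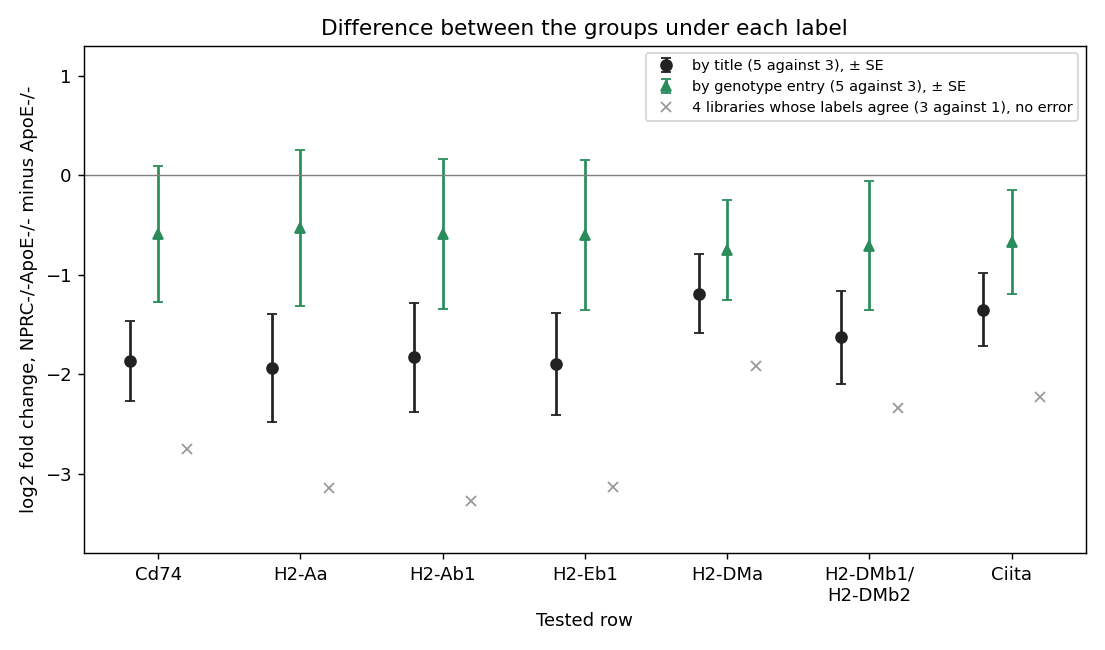
Log2 fold change of each tested row, NPRC-/-ApoE-/- minus ApoE-/-, for libraries grouped by title (circles), by genotype entry (triangles) and for the 4 libraries whose labels agree (crosses). Bars are ± SE from edgeR, and the crosses have no error. By title the rows lie between −1.94 and −1.19, and by genotype entry between −0.75 and −0.53.

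Single libraries weighed on these values. Without NPRC-/-ApoE-/- 1 the 7 rows were 3.28- to 7.25-fold lower by title, instead of 2.28- to 3.84-fold, and Cd74 had an adjusted p of 0.0486 in edgeR. Without NPRC-/-ApoE-/- 2 or without NPRC-/-ApoE-/- 3, H2-DMa no longer had an unadjusted p under 0.05 in edgeR (0.065 and 0.066), while the other 6 rows did. Leaving out any one of the titled ApoE-/- libraries left 7 of 7. Of all 20506 tested loci, 959 to 2086 were then lower with such a p. Those lower numbered 2380 without NPRC-/-ApoE-/- 1, 598 without NPRC-/-ApoE-/- 2 and 699 without NPRC-/-ApoE-/- 3.

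The surface chains and the invariant chain kept close proportions to each other within a library. The ratio of H2-Aa to H2-Ab1, which encode the chains of one molecule, was 1.06 to 1.6 (in FPKM), while H2-Aa itself spanned 12.9-fold across libraries. The ratio of H2-Eb1 to H2-Aa was 0.916 to 1.27, and that of Cd74 to H2-Aa was 2.62 to 4.52, each with overlapping titled groups. Ratios to other members spanned more, with Ciita to H2-Aa at 0.0318 to 0.0963 and H2-Ob to H2-DMa at 0.0392 to 0.241, also with overlapping titled groups. For H2-DMa the titled groups stood apart. The ratio of H2-DMa to H2-Aa was 0.107, 0.0926, 0.105, 0.068 and 0.107 in ApoE-/- 1 to 5 and 0.13, 0.185 and 0.234 in NPRC-/-ApoE-/- 1 to 3, and that of H2-DMa to H2-DMb was 1.58 to 1.83 against 2.10 to 2.79. Neither overlapped by title. On the log2 scale H2-DMa over H2-Aa was 0.91 higher in NPRC-/-ApoE-/- and H2-DMa over H2-DMb 0.49 higher, and each had p = 0.036 in an exact permutation test (two-sided, 5 against 3 libraries, where no smaller p is possible), or 0.11 after adjustment over 6 ratios. By genotype entry the differences were −0.01 (exact permutation p = 1) and −0.07 (exact permutation p = 0.79). The other 4 ratios tested had exact permutation p-values of 0.11 to 0.71 by title and 0.46 to 1 by genotype entry. The ratios were chosen with the members' values known, and the part of Brd2 reads in H2-DMa was not tested.

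**Figure D3:**
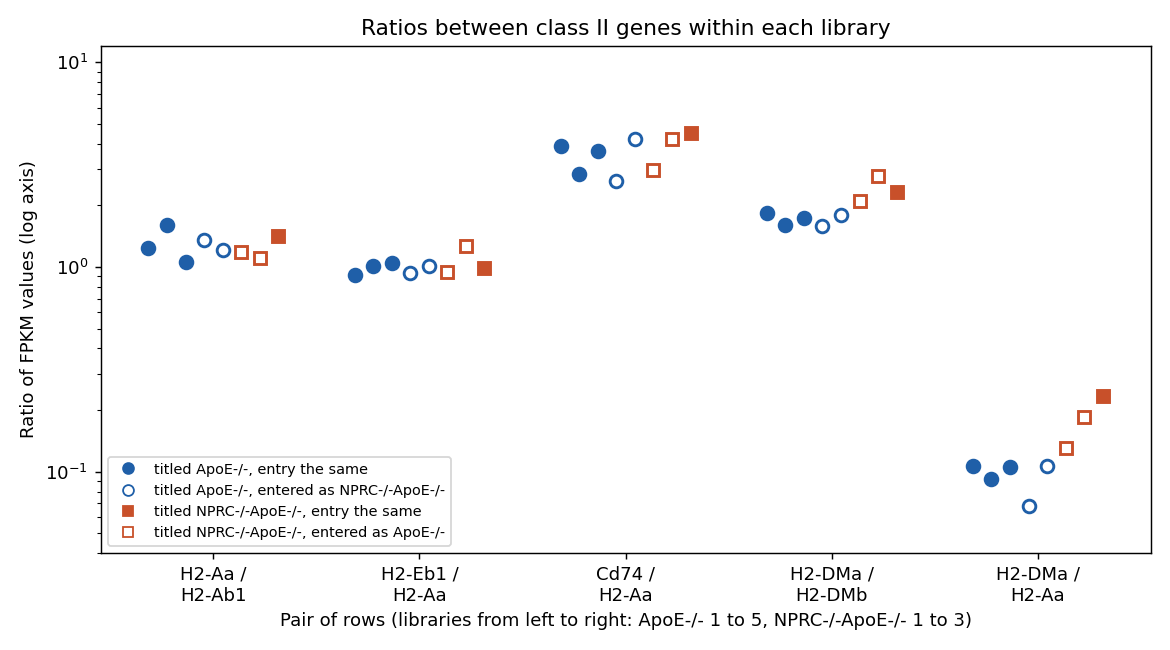
Ratios between class II rows within each library, in FPKM on a log axis, with symbols as in the plot of FPKM by library. H2-Aa/H2-Ab1, H2-Eb1/H2-Aa and Cd74/H2-Aa overlap between the titled groups, whereas H2-DMa/H2-DMb and H2-DMa/H2-Aa are higher in the 3 libraries titled NPRC-/-ApoE-/-.

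Genes that act with the members were counted in lists fixed by name. Of the class II promoter factors, the RFX subunits (Rfx5, Rfxank, Rfxap), Creb1 and the NF-Y subunits (Nfya, Nfyb, Nfyc), 0 of 7 had an unadjusted p under 0.05 by title in edgeR, with log2 fold changes of −0.19 to 0.24 and a median of −0.01. Their summed level was 187 to 235 CPM in the titled ApoE-/- libraries and 198 to 213 CPM in the others, while that of the class II rows was 636 to 1490 CPM and 167 to 559 CPM. Over all tested loci, 7.13% were lower and 6.51% higher with such a p. Ciita had one by title, but its difference from these 7 factors was not tested. By genotype entry Ciita was at −0.67 (edgeR unadjusted p = 0.23). There 0 of the 7 factors had such a p (median −0.06), with Rfx5 at −0.54 (edgeR unadjusted p = 0.054).

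The endosomal processing genes had lower values along with the class II genes. By title, 5 of 6 were lower with an unadjusted p under 0.05 in edgeR, against 7.13% of tested loci. The exception was the row that Ifi30, a thiol reductase, shares with Pik3r2, at −0.48 with an unadjusted p of 0.082. Among the 5, the row of Ctsd also names Ifitm10, and that of Ctsl also names Gm49230. The median log2 fold change of the 6 was −1.08 by title, and by genotype entry the median was −0.02 and 0 of 6 passed. Ctss had 265.74, 352.81, 491.24, 599.88 and 177.17 FPKM in ApoE-/- 1 to 5 and 298.27, 95.84 and 90.53 FPKM in NPRC-/-ApoE-/- 1 to 3, so its highest library was ApoE-/- 4 and the groups overlapped. Both genes measured of class II turnover had an unadjusted p under 0.05, with log2 fold changes of −1.14 for March1, a ubiquitin ligase that removes class II from the surface, and −1.45 for Cd83, which opposes it, or −0.27 and −0.34 by genotype entry. None of these had an adjusted p under 0.05 in edgeR.

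Interferon-γ, the main inducer of Ciita outside dedicated presenting cells, was barely detected. Ifng had 0 to 0.09 FPKM in the titled ApoE-/- libraries and 0.01 to 0.03 FPKM in the others. Of its pathway, 7 of 7 tested genes had negative log2 fold changes, with a median of −0.40 by title and −0.08 by genotype entry. By title 4 of them had an unadjusted p under 0.05 in edgeR, where 7.13% of tested loci were lower with such a p. Among the 4 were Ifngr1 at −0.67, Jak1 at −0.38 and Irf8 at −1.45. Ifngr1 and Jak1 had smaller log2 fold changes than each class II row, although that difference was not tested, and none of the pathway had an adjusted p under 0.05 in edgeR. Of the T-cell genes whose products bind class II, Cd4 had 1.95 to 2.85 FPKM against 0.48 to 1.28 FPKM by title (log2 fold change −1.56, unadjusted p = 0.0011 and adjusted p = 0.22 in edgeR), but 0.28 by genotype entry. Lag3, not tested for its low level, had 0.72 to 1.36 FPKM against 0.38 to 0.46 FPKM. Of the costimulatory genes, Cd80 and Cd86 had −0.71 and −0.99 (edgeR unadjusted p = 0.12 and 0.11, with 0 and −0.03 by genotype entry), and Cd40 was under 1 FPKM in every library.

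**Figure D4:**
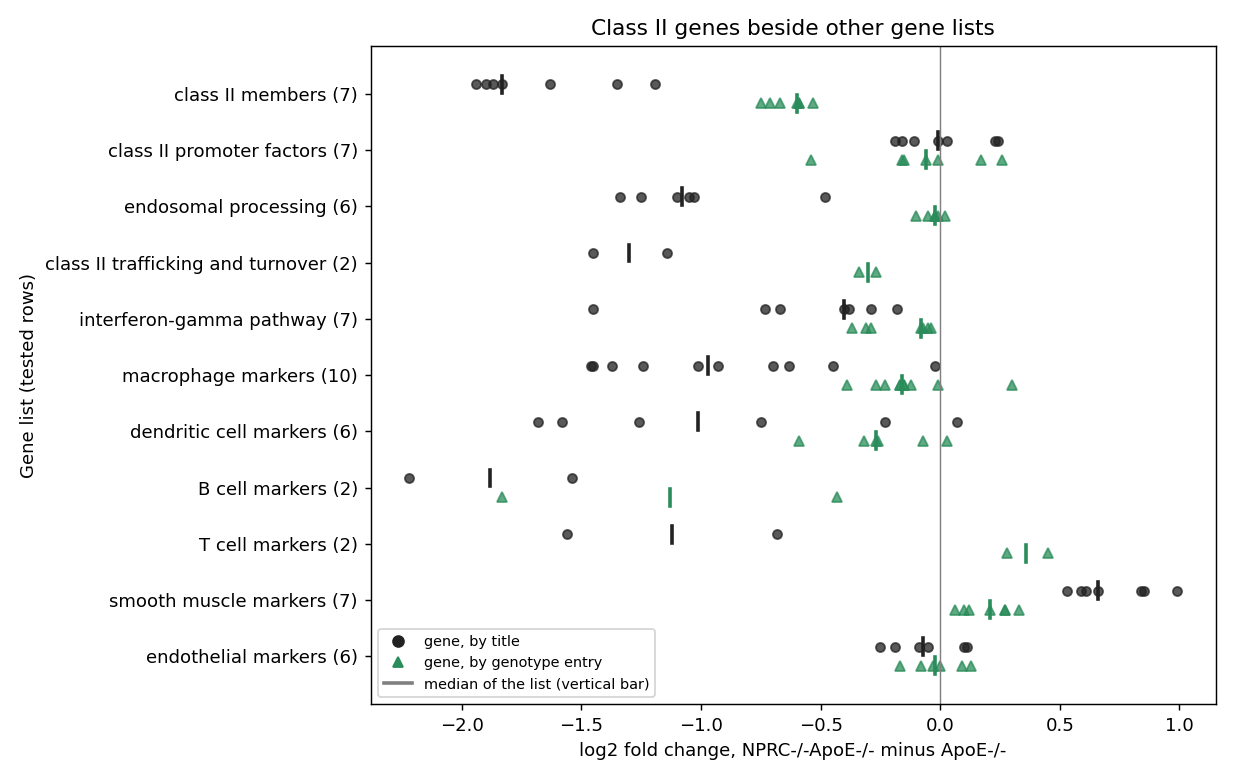
Log2 fold change of each tested gene in 11 lists, by title (circles) and by genotype entry (triangles), with the list median as a vertical bar and the number of tested rows beside each name. By title the medians are −1.83 for the class II rows, −0.01 for their promoter factors, −0.97 for macrophage markers and 0.66 for smooth muscle markers, and by genotype entry they are −0.60, −0.06, −0.16 and 0.21.

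In whole aorta, fewer cells of a type and less RNA per cell cannot be told apart, so markers of the cells that carry class II are given beside it. Of 10 macrophage markers, 10 had negative log2 fold changes by title, with a median of −0.97 (−0.16 by genotype entry). By title 5 of them had an unadjusted p under 0.05 in edgeR, where 7.13% of tested loci were lower with such a p. Their summed level was 1840 to 4890 CPM in the titled ApoE-/- libraries and 1260 to 2600 CPM in the others, which overlapped. The row that holds Cd68 also names Senp3, Eif4a1 and other genes, and rows of a few other markers also name a neighbouring gene, so these values are not the marker's alone. Of the 6 dendritic cell markers tested, 4 were lower with an unadjusted p under 0.05, with a median of −1.01 (−0.27 by genotype entry) and a summed level over all 10 of 205 to 466 CPM against 148 to 250 CPM. Flt3 was untested at 0.39 to 1.11 FPKM against 0.07 to 0.46 FPKM, where only ApoE-/- 5 (0.39) was under NPRC-/-ApoE-/- 1 (0.46). Zbtb46 was at 0.07.

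B cell markers were scarce, and 2 of 8 were tested. In edgeR, Cd79b was at −2.22 (unadjusted p = 0.062) and Cd22 at −1.54 (unadjusted p = 0.0071). By genotype entry their median was −1.13. Cd79b had 8.71 FPKM in ApoE-/- 2, but 0.4 to 1.89 FPKM in the other titled ApoE-/- libraries and 0.15 to 1.06 FPKM in the rest. The summed level of all 8 was 18.4 to 107 CPM against 10.5 to 28.9 CPM. The 107 CPM was again ApoE-/- 2, and the next highest was 50.8 CPM in ApoE-/- 3. Ms4a1 was at 0 in NPRC-/-ApoE-/- 2. Of the T cell markers 2 of 7 were tested (median −1.12 by title and 0.36 by genotype entry), with a summed level of 22.3 to 38.7 CPM against 11.6 to 25.8 CPM and Cd3e at 0.41 to 1.19 FPKM against 0.17 to 0.42 FPKM. Of the genes that define the labelled tissue, Acta2, the actin of smooth muscle, had 849.37 to 1188.73 FPKM against 1171.54 to 1982.09 FPKM. All 7 smooth muscle markers were higher in the titled NPRC-/-ApoE-/- libraries with an unadjusted p under 0.05, against 6.51% of tested loci in that direction (median 0.66 by title and 0.21 by genotype entry, summed level 5790 to 7640 CPM against 7370 to 14000 CPM), and endothelial markers had a median of −0.07 (−0.02 by genotype entry) with 0 of 6 at such a p. The part of cell makeup in the class II values was not tested.

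Class II and macrophage levels were both lowest in NPRC-/-ApoE-/- 2 and 3, and libraries with more macrophage markers mostly had more class II. Their order was not the same throughout. ApoE-/- 3 and 4 had the highest summed macrophage markers, 4790 and 4890 CPM, but 1470 and 1030 CPM of class II. ApoE-/- 2, with 3120 CPM of macrophage markers, had the most class II, 1490 CPM. NPRC-/-ApoE-/- 1 had 2600 CPM of macrophage markers, more than ApoE-/- 1 (2350) and ApoE-/- 5 (1840), but 559 CPM of class II against 878 and 636. The mean class II level minus the mean macrophage level was −0.77, −0.34, −0.96, −1.47 and −0.93 log2 CPM in ApoE-/- 1 to 5 and −1.37, −1.89 and −2 log2 CPM in NPRC-/-ApoE-/- 1 to 3. NPRC-/-ApoE-/- 2 and 3 were thus below the other libraries, and NPRC-/-ApoE-/- 1 lay between ApoE-/- 3 and ApoE-/- 4, so the titled groups overlapped. Taken against dendritic cell markers, the difference was 1.91 to 2.62 log2 CPM in the titled ApoE-/- libraries and 0.85 to 1.78 in the others, without overlap. By genotype entry it was 1.17 to 2.62 and 0.85 to 2.03 log2 CPM, with overlap. The 6 markers in that mean were uneven, from −1.68 (Cd209a) to 0.07 (Zbtb46) by title. Against B cell markers the difference was 2.73 to 4.31 and 3.12 to 3.79 log2 CPM by title, with overlap. By genotype entry the groups also overlapped for macrophage and B cell markers. These differences were not tested.

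**Figure D5:**
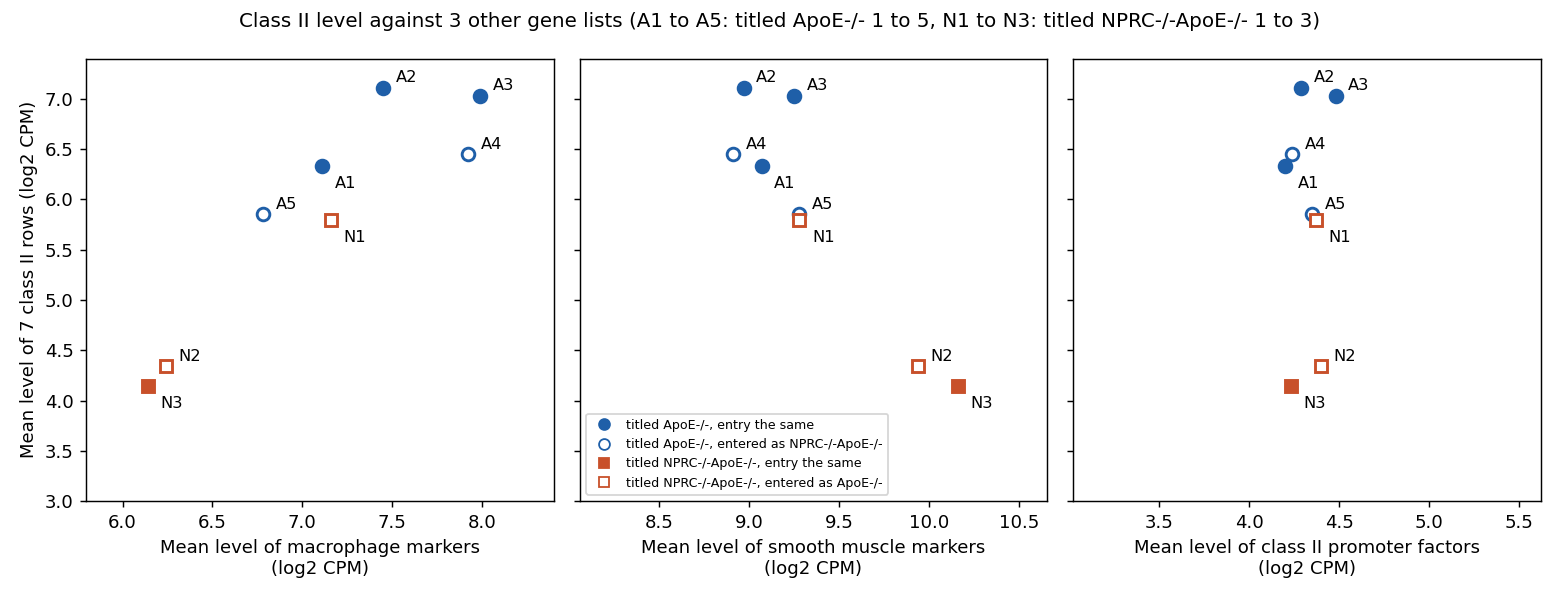
Mean level of the 7 tested class II rows against that of macrophage markers, smooth muscle markers and class II promoter factors, in log2 CPM, with 1 point per library (A1 to A5 titled ApoE-/- 1 to 5, N1 to N3 titled NPRC-/-ApoE-/- 1 to 3). N2 and N3 have the lowest class II and macrophage levels and the highest smooth muscle levels, while the promoter factors lie within 4.20 to 4.48 log2 CPM in all 8 libraries.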

How the data were processed

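The authors trimmed reads with cutadapt 1.9, mapped them with HISAT2 to GRCm38 and assembled loci with StringTie. They deposited 1 table with the count and the FPKM of every assembled locus in the 8 libraries. The deposited counts are whole numbers without normalization, and the deposited FPKM values are scaled to transcript length and mapped fragments. How counts were derived and whether strand was used are not given in the sources used here. Assembled loci without a gene name held 0.61% of counts and were kept as loci. Every column of values matched a sample (0 did not).

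Libraries were grouped by title and again by genotype entry. The 20506 loci at 1 FPKM or more in 3 or more libraries were fitted on counts with R 4.3.3 and edgeR 4.0.16 (TMM, quasi-likelihood test, Benjamini-Hochberg adjustment over all loci, biological coefficient of variation 0.327). All 10 members are named whatever their values, and of the other lists the defining genes and those a result turns on, of which some are not reported here. The members and lists were chosen with earlier results of these data known. CPM are TMM-scaled, with a prior count of 2 on the log2 scale. Alternatives were median-ratio scaling, DESeq2 1.42.0, limma 3.58.1 on log2(FPKM + 1) and log2(FPKM + 0.1) and with array quality weights, other filters on low values, summed rows of a gene, a replicate block and each library left out. Ratios were compared with exact permutation tests in scipy 1.17.1. The fit was tested on simulated data. The number of libraries limits the precision.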

Additional observations from a re-analysis of the deposited data

Results flagged for a closer look

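H2-Ob stood apart in 1 library. It had 1.89 FPKM in ApoE-/- 2 and 0.33 to 0.64 FPKM in the other 4 libraries titled ApoE-/-, a gap of 0.801 of the range of the group. By genotype entry the same library was again apart, with a gap of 0.714 of the range. In all, 18 groups of 5 libraries were checked and 2 were marked, where chance gives 0.9 (about 1 in 20). Both marks are the same value, and the groups by title and by genotype entry share libraries. The checks are therefore not independent, and the 2 marks count as 1 event. H2-Ob is known as a B cell gene, and in ApoE-/- 2 the B cell marker Ms4a1 had 1.76 FPKM (0 to 0.24 FPKM in the other 7 libraries) and Cd79a 4.07 FPKM (0.26 to 0.81 FPKM). Their part in the H2-Ob value was not tested.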

How the results depend on the processing

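Grouped by genotype entry, the count of tested rows with an unadjusted p under 0.05 was 0 instead of 7, and the median log2 fold change was −0.60 instead of −1.83. Chosen after seeing the data, genotype entry with DESeq2 gave 0 and −0.59, with array quality weights 0 and −0.78, and without a filter on low values 0 and −0.59. In the 4 libraries whose labels agree the median was −2.75. With a mean of at least 5 FPKM the count was 4, since only H2-Aa, H2-Ab1, H2-Eb1 and Cd74 were then tested. In that fit 374 of 4246 tested loci were lower with such a p. Why the labels conflict was not tested. Leaving out each library in turn gave counts of 6 to 7 and medians of −2.46 (without NPRC-/-ApoE-/- 1) to −1.44 (without NPRC-/-ApoE-/- 3). Over all 20506 tested loci, the number lower with such a p then moved from 598 to 2380, against 1462 in the main fit. The other alternatives by title gave 7 and medians of −2.27 to −1.79. With DESeq2 1848 of the 20506 loci were lower with such a p, and with array quality weights 2825. The replicate block in 6 libraries gave 7 and −2.23, and without the block 7 and −2.03. Of the 20506 loci, 1068 with the block and 1465 without it were lower with such a p. Same-numbered libraries had correlations of −0.314 to 0.007, which gave no sign of a pairing by number. With so few libraries and with labels in conflict, these values cannot exclude a pairing. All 160 single-gene values under the alternatives were negative, and 12 of them, by title, passed an adjusted p of 0.05 (6 with DESeq2, 5 with array quality weights and Cd74 without NPRC-/-ApoE-/- 1). H2-Oa rests on at most 140 counts in a library.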

Other observations

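Within introns of Ciita, 3 further rows carry its name without covering an annotated exon base. The longest, chr16:10494355-10499708, had 1.92, 1.88, 1.05, 0.58 and 1.34 FPKM in ApoE-/- 1 to 5 and 1.09, 0.37 and 0.34 FPKM in NPRC-/-ApoE-/- 1 to 3. In these rows ApoE-/- 1 was highest, whereas in the row used for Ciita ApoE-/- 2 was. H2-Eb2, a class II β gene near H2-Eb1, had 1.12 FPKM in ApoE-/- 2 and 0.01 to 0.33 FPKM in the other 7 libraries. Brown fat markers had log2 fold changes of 0.02 to 0.73 by title with 0 of 6 at an unadjusted p under 0.05 in edgeR, and white adipocyte markers −0.71 to 0.08 with 0 of 5. By genotype entry their medians were −0.10 and −0.11. Of 3 lymph node stroma markers tested, Cxcl13, a B cell chemoattractant, was at −2.33 by title (unadjusted p = 0.0098 and adjusted p = 0.28 in edgeR) and −0.86 by genotype entry (unadjusted p = 0.39). Its values were 0.29 to 3.24 FPKM in the titled ApoE-/- libraries and 0.17 to 0.47 FPKM in the others. It passed the filter only through ApoE-/- 2, 3 and 4, so the filter itself favoured a negative change by title. Ccl19, which attracts T cells and dendritic cells, was at −0.42 by title (edgeR unadjusted p = 0.22) and −0.73 by genotype entry (unadjusted p = 0.023), and Ccl21a at −0.39 (unadjusted p = 0.21) and −0.35 (unadjusted p = 0.27).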
